A study of Mus musculus with 13 samples.

Results

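Of the 22598 genes in the deposited single-cell table, 34 encode nuclear subunits of respiratory complexes III, IV and V, and all 34 were found by their symbols. They comprise 9 subunits of complex III, 11 of complex IV and 14 of complex V. They were followed in sorted myeloid cells of the spinal cord. All groups came from mice with the genotype Cx3cr1YFPCreERT2:R26tdTomato, which carry CreERT2 at Cx3cr1, a gene of myeloid cells, and a Cre-dependent tdTomato reporter at R26. Resident cells came from healthy controls (3 libraries) and from mice with experimental autoimmune encephalomyelitis (EAE), a model of immune attack on myelin, at its peak (2) or in its chronic phase (3). Infiltrating cells came from the peak (2) and the chronic phase (3), and no infiltrating library of healthy mice was used here. The labels give no age, sex or induction protocol, and call the libraries of a group biological replicates. The deposited cell table does not carry the replicate numbers of the labels, so libraries are called a, b and c within a group, as names only.

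Complex III takes electrons from ubiquinol and passes them through cytochrome c1 to cytochrome c. Complex IV, cytochrome c oxidase, passes them on to oxygen, and both pump protons across the inner mitochondrial membrane. Complex V, the ATP synthase, lets the protons flow back through a ring of c subunits and makes ATP in its F1 head. Each of these complexes combines subunits made in the cytosol from nuclear genes with a few made inside mitochondria. In microglia, the resident macrophages of the central nervous system, the balance between oxidative phosphorylation and glycolysis is known to shift with activation.

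Coding sequences are printed where the results compare genes that fill the same position in a complex. The c subunit of the ATP synthase ring is made from 3 genes, Atp5g1, Atp5g2 and Atp5g3, whose precursors carry different import signals but end in the same mature protein. The last 228 bases of each reading frame (75 codons and the stop, from GENCODE M21 transcripts, GRCm38) are given 5′ to 3′, with capitals at the 58 positions that are not shared by all 3 genes.
Atp5g1: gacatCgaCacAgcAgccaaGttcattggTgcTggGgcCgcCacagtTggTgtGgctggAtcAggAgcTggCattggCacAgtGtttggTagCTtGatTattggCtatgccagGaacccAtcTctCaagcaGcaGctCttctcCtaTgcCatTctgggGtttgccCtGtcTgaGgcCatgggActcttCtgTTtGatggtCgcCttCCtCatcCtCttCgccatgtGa
Atp5g2: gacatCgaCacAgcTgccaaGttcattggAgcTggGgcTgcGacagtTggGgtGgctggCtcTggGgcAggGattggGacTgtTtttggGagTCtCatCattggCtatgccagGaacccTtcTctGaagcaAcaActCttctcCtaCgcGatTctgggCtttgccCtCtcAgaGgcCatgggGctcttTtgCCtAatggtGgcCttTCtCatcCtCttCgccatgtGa
Atp5g3: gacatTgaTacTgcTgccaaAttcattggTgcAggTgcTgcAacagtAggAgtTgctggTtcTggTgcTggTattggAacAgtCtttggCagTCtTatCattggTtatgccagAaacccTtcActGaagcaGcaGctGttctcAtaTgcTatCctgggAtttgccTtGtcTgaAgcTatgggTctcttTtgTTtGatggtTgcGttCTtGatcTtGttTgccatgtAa
Translated, 0 residues differed between the 3 stretches, whereas 34 to 49 bases differed in each pair of genes. Subunit 6A of complex IV is made from Cox6a1, the form of most tissues, or Cox6a2, known from heart and skeletal muscle. Their whole reading frames share 192 of 294 aligned bases (65.3%). The last 39 codons and the stop, given 5′ to 3′ with capitals at the 33 of 120 bases that differ, differ in 6 residues when translated.
Cox6a1: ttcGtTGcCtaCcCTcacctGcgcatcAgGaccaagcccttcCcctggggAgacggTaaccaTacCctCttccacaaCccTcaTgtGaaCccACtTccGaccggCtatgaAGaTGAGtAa
Cox6a2: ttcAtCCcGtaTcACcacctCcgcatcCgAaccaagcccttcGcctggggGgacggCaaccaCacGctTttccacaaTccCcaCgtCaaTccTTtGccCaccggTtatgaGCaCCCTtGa
In GENCODE M21, Cox6a2 lies on chromosome 7 from 128205435 to 128206387 on the minus strand (GRCm38), inside Itgad on the other strand, and exons of the pair overlap. Itgad had 0 to 3 unique molecular identifiers (UMIs) in each of the 13 sums, while Cox6a2 had between 12 and 1950. Positions were matched for 33 of the 34 genes (not Atp5o), and 10 of them have an exon that overlaps an exon on the other strand.

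A UMI stands for 1 captured transcript molecule. For each resident library the UMIs of the cells that the authors annotated as microglia were summed, and for each infiltrating library those of the monocytes and macrophages. These 13 sums held 18850 of the 22148 cells and 2262491 (chronic infiltrating c) to 20256465 UMIs (peak infiltrating a) each. Depth per cell differed with the groups, with median totals of 3017 to 4476 UMIs in control, 8447 to 8521 in peak and 2466 to 3544 in chronic microglia. In the infiltrating sums the medians were 11075 to 11414 at the peak and 6552 to 9730 in the chronic phase. Levels of single genes are given as CPM (counts per 1e6 UMIs), scaled by TMM. The annotated classes were checked on markers. Tmem119, a microglial gene, was at 355 to 1266 CPM in resident and 11.3 to 69.6 CPM in infiltrating sums, while Ccr2, a monocyte marker, was at 0 to 1.06 and 112 to 486 CPM. Chronic infiltrating b held mostly microglia, and its monocytes and macrophages made up 14.5% of its cells. Across libraries, 52 cell barcodes occurred in 2 libraries.

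In chronic EAE, most of these genes were higher in microglia than in healthy controls, and at the peak 13 of them were, with Cox6a2 changing most. The 34 genes together took 0.720, 0.639 and 0.767% of the UMIs of control libraries a, b and c. They took 0.887 and 1.17% in peak microglia a and b and 1.23, 1.22 and 0.968% in chronic microglia a, b and c. Each of the 5 disease libraries thus lay above each of the 3 controls, with group means of 0.708 ± 0.0649% (SD, n = 3), 1.03 ± 0.198% (n = 2) and 1.14 ± 0.148% (n = 3). Per cell, the sums came to 27.4 ± 2.82 UMIs in control, 90.8 ± 20.0 at the peak and 40.5 ± 1.84 in chronic microglia, and these values also carry the deeper peak cells. Infiltrating monocytes and macrophages stood higher, at 1.52 and 1.22% at the peak and 1.80, 1.74 and 1.28% in the chronic phase.

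**Figure D1:**
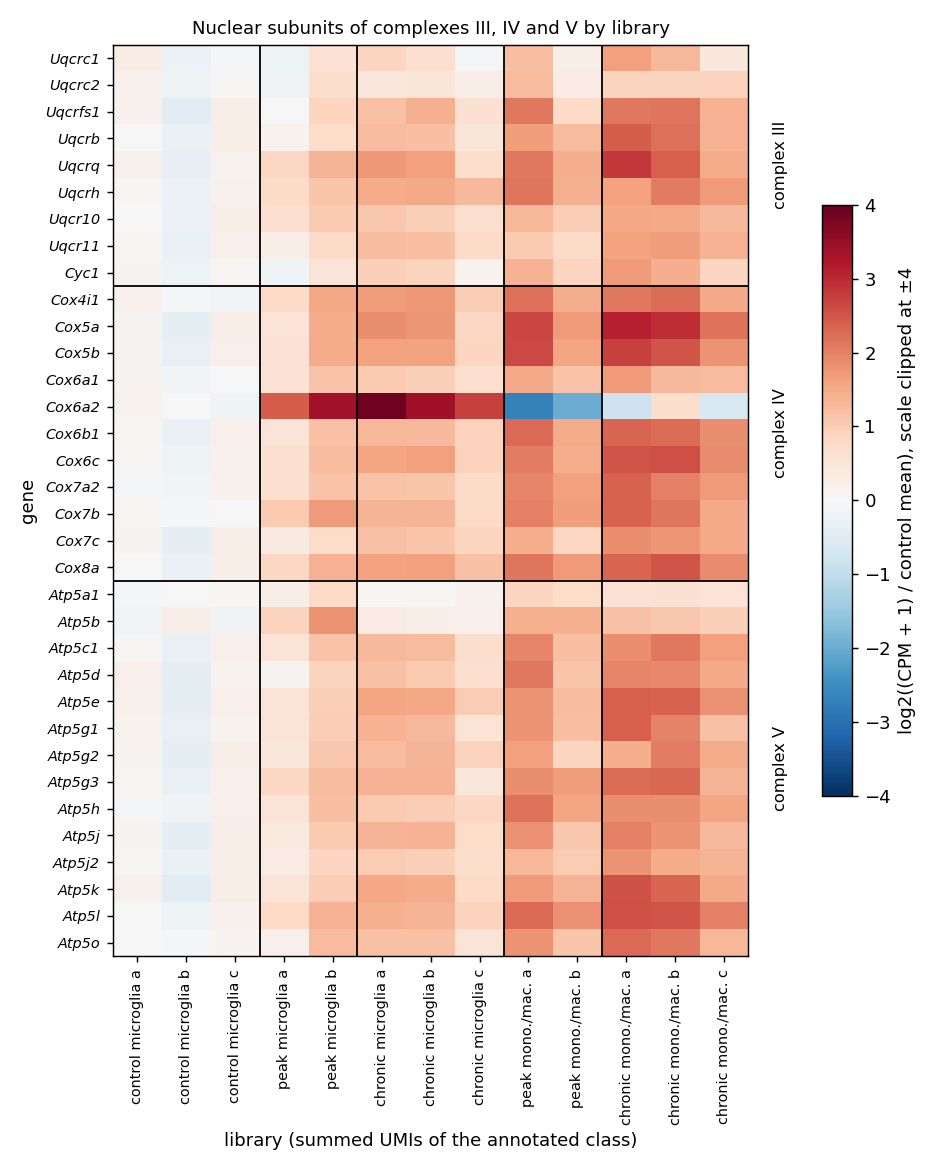
Level of each of the 34 genes in each of the 13 library sums, 1 row per gene and 1 column per library, coloured by the log2 ratio of CPM + 1 to its control mean, clipped at ±4. Most rows turn red (higher than control) in disease microglia and deeper red in infiltrating cells, while Cox6a2 is deep red in disease microglia and mostly blue (lower than control) in infiltrating cells.

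At the peak, 13 of the 34 genes rose in microglia against control (edgeR quasi-likelihood F test, Benjamini-Hochberg adjusted p under 0.05), where 12.3% of the 11479 genes tested rose and 22% changed in either direction. None of the 34 fell, and all 34 fold changes were above 0, with a median of 0.86 on the log2 scale against 0.00 over all genes. In 28 of them every peak library was above every control library, as were 27.2% of all genes tested. By complex, 2 of 9 genes of complex III rose (median 0.46), 7 of 11 of complex IV (median 1.06) and 4 of 14 of complex V (median 0.77).

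In complex IV the gene that rose most was Cox6a2. It was at 16.3, 14.9 and 13.1 CPM in control libraries a to c, at 82.5 and 160 CPM in peak microglia a and b, and at 234, 162 and 103 CPM in chronic microglia a to c. The disease libraries did not overlap the controls, whose low level is set beside that of T cells below. The log2 change was 3.04 ± 0.45 (SE) at the peak (edgeR adjusted p = 0.00041) and 3.49 ± 0.43 in chronic disease (edgeR adjusted p = 0.00012). Both calls were also made under each of the 22 other settings and left-out libraries. Cox7b, a small membrane subunit of complex IV that is encoded on the X chromosome, was at 94.0, 88.7 and 91.9 CPM in controls and at 192 and 298 CPM at the peak. All peak values were above the controls, and the log2 change was 1.42 ± 0.30 (edgeR adjusted p = 0.0039). Cox8a, the most abundant of the 11 by UMIs, was at 343, 289 and 420 CPM in controls and at 618 and 920 CPM at the peak, a log2 change of 1.13 ± 0.30 (edgeR adjusted p = 0.015). Cox4i1, Cox6a1, Cox6c and Cox7a2 rose as well, by 0.89 to 1.21.

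In complex V the rise at the peak was led by Atp5b, which encodes the catalytic beta subunit of the F1 head. Control libraries were at 123, 156 and 119 CPM and peak libraries at 246 and 457 CPM, a log2 change of 1.40 ± 0.26 (edgeR adjusted p = 0.0021). Atp5a1, the alpha subunit that alternates with beta in the head, was at 157, 158 and 169 CPM in controls and at 189 and 284 CPM at the peak, and its change of 0.55 ± 0.22 did not pass (edgeR adjusted p = 0.094). Atp5l, subunit g of the membrane part, was at 183, 164 and 210 CPM against 319 and 487 CPM and rose by 1.12 ± 0.29 (edgeR adjusted p = 0.014). Atp5h, of the peripheral stalk, and Atp5g3 rose by 0.90 and 1.06. In complex III, Uqcrh, the hinge protein next to cytochrome c1, was at 221, 181 and 241 CPM in controls and 361 and 458 CPM at the peak and rose by 0.93 ± 0.28 (edgeR adjusted p = 0.026). Uqcr10 was the other to rise. The core proteins Uqcrc1 and Uqcrc2, the Rieske iron-sulphur protein Uqcrfs1 and cytochrome c1 (Cyc1) had overlapping groups and changes of 0.20 to 0.46. Uqcrc1, the lowest of complex III by UMIs, was at 70.2, 48.3 and 55.9 CPM in controls and 49.4 and 86.2 CPM at the peak (0.22 ± 0.39, edgeR adjusted p = 0.73).

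The peak count rested on few libraries. Without peak microglia b, 1 gene (Cox6a2) remained called, and Atp5b was then at 0.89 (edgeR adjusted p = 0.063). Without control a, b or c, 4, 4 and 6 of the 13 remained. Pools A to D are names given here to the 4 values of the SLX column of the deposited cell table, whose meaning its header does not give. Pool C holds control b and both peak libraries and spans 2 batch dates. Within it all 34 genes were higher in peak b than in control b, as were 46.8% of all genes tested. The median log2 difference was 1.35, with 30 genes above 1 against 11.8% of all genes. In peak a all 34 were higher as well, as were 50.0% of all genes (median 0.79, 5 genes above 1 against 9.67% of all genes).

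In chronic EAE, 28 of the 34 genes rose against control in the same test and none fell, where 11.3% of all genes tested rose and 17.7% changed in either direction. The median log2 change was 1.11 against −0.01 over all genes, all 34 changes were above 0, and in 31 genes every chronic library was above every control library, as were 22.2% of all genes. All 11 genes of complex IV rose (median 1.39), with 12 of 14 of complex V (median 1.11) and 5 of 9 of complex III (median 1.00). The chronic and peak comparisons share the 3 control libraries.

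Next to Cox6a2, the smallest p-values belonged to 1 gene of each complex. Uqcrh of complex III was at 595, 605 and 525 CPM in chronic libraries a to c, above its control values given before, and rose by 1.42 ± 0.25 (edgeR adjusted p = 0.0018). Cox8a was at 1051, 1084 and 783 CPM and rose by 1.47 ± 0.28 (edgeR adjusted p = 0.0025). Atp5e, the epsilon subunit in the central stalk of the F1 head and the most abundant gene of complex V by UMIs, was at 349, 233 and 356 CPM in controls and 916, 901 and 626 CPM in chronic libraries. Its log2 change was 1.38 ± 0.28 (edgeR adjusted p = 0.0045). In all 3 genes chronic c was the lowest chronic library, and still above each control.

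The other genes that rose in chronic disease did so by 0.88 (Atp5j2) to 1.53 (Cox5a), and in each of them the chronic libraries were above the controls. In complex IV, Cox5a and Cox5b, matrix-side subunits, rose by 1.53 ± 0.38 and 1.39 ± 0.36, Cox4i1, the widely expressed isoform of subunit 4, by 1.49 ± 0.32, and Cox6c by 1.41 ± 0.29. Cox5a went from 112, 77.0 and 124 CPM in controls to 372, 350 and 181 CPM. Cox6b1, Cox7b, Cox7a2 and Cox7c rose by 1.02 to 1.19. In complex III, the small subunits Uqcrq, Uqcr11, Uqcrb and Uqcr10 rose by 1.41, 1.08, 1.00 and 0.91. Uqcrq went from 149, 106 and 148 CPM to 443, 413 and 217 CPM. In complex V, Atp5k and Atp5l of the membrane part rose by 1.29 and 1.25, and Atp5j and Atp5h of the peripheral stalk by 1.17 and 0.95. The edgeR adjusted p of the genes named here ran from 0.0052 (Cox6c) to 0.039 (Uqcrb).

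The 6 genes that did not pass encode catalytic, electron-carrying or core parts of their complexes, but their coding sequences are also long. These run from 822 bases (Uqcrfs1) to 1659 bases (Atp5a1), while Atp5c1, which passed, has 894 bases. Coding length moved with the chronic result, as given below. Whether function or length goes with the missed threshold was not tested, and these genes were not shown to be unchanged. Atp5b was at 168, 157 and 151 CPM in chronic libraries, which overlap the controls (change 0.25 ± 0.24). Atp5a1 was at 172, 167 and 182 CPM (0.10 ± 0.20), again overlapping. In complex III, Uqcrc1 was at 70.2, 48.3 and 55.9 CPM in controls and 105, 91.5 and 55.9 CPM in chronic libraries (0.53 ± 0.35). Uqcrc2, Cyc1 and Uqcrfs1 had changes of 0.40, 0.70 and 1.09 with groups that did not overlap, and edgeR adjusted p-values of 0.29, 0.11 and 0.055. Atp5c1 and Atp5d, the gamma and delta subunits of the F1 head, did rise, by 1.10 and 0.95.

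**Figure D2:**
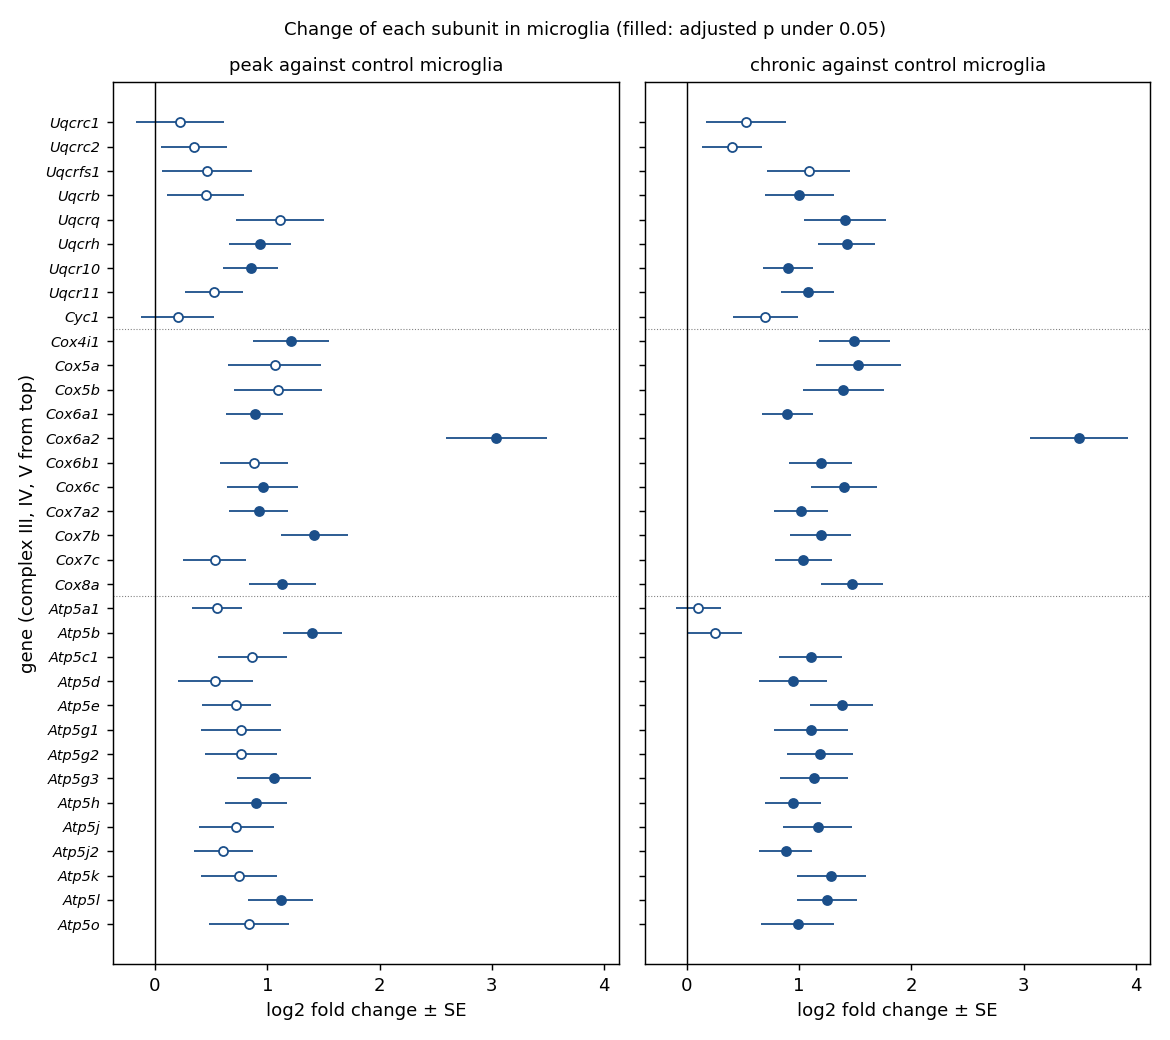
Log2 fold change with its standard error for each of the 34 genes, for peak (left) and chronic (right) against control microglia; filled points have an edgeR adjusted p under 0.05, and genes are ordered by complex from the top. Against control all points lie above 0, with Cox6a2 farthest out at 3.04 and 3.49, and Atp5b lies at 1.40 at the peak and 0.25 in chronic disease.

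Coding length moved with the chronic result. This was examined after the values were seen. All 24 genes with a coding length under 500 bases rose, with 4 of the 6 from 500 to under 1000 bases and 0 of the 4 longer ones (Uqcrc1, Uqcrc2, Atp5a1 and Atp5b, 1359 to 1659 bases). Among other genes without ribosomal protein genes, 26.3% of 916 genes under 500 bases rose, 14.6% of 2635 from 500 to under 1000, 8.97% of 4301 from 1000 to under 2000 and 5.05% of 3284 longer ones. Across these 11136 genes, which are not independent, the chronic change fell with coding length (Spearman rho −0.31), while for the peak change rho was 0.03. The median change of the 916 short genes was 0.47, and that of the 24 short subunit genes was 1.19. Single libraries carried the trend too: against the mean of the other controls, rho was −0.25, 0.40 and −0.30 in control a, b and c. Against the mean of the controls it was 0.16 and −0.10 in peak a and b and −0.31, −0.33 and −0.29 in chronic a to c. Within pool C, against control b, rho was 0.03 in peak a and −0.23 in peak b, where the short subunit genes had median differences of 0.86 and 1.40 and the 916 others 0.10 and 0.39. Within pool B, chronic c against control c, rho was −0.16, and the short subunit genes had a median difference of 0.61 against 0.14 in the 916 others. The part of this trend in the peak and chronic results was not tested.

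Library and pool also bear on the chronic count. Without control b it was 9, without chronic a or chronic b 10 each, and without control a 16. Only pool B holds a chronic and a control microglia library. There 33 of 34 genes were higher in chronic c than in control c, as were 50.1% of all genes, with a median log2 difference of 0.55. The exception was Uqcrc1 at −0.00068, and 3 genes were above 1, against 5.69% of all genes. With pool as a term the chronic median was 0.57 and 1 gene, Cox6a2, was called, while 4.14% of all genes tested were. With library size alone as the scale, which moves the median of all genes by −0.32 at the peak and −0.49 in chronic disease, 6 and 19 of the subunit genes were called. The share of all genes called is not set beside these counts or those with a library left out.

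Other gene lists were counted in the same 2 comparisons, in which 12.3% of all genes tested rose at the peak and 11.3% in chronic disease. The 6 subunits of complexes III, IV and V that mitochondria encode rose in 4 cases at the peak (median 1.48), led by COX1, the catalytic subunit of complex IV, with 1.62 ± 0.27 (edgeR adjusted p = 0.00099). COX3 and COX2, the other core subunits, rose by 1.49 ± 0.26 and 1.48 ± 0.34. In chronic disease 3 of the 6 rose (median 0.62), with CYTB of complex III at 0.93 ± 0.24 and COX3 and COX1 at 0.83 and 0.75. Nuclear subunits of complex I rose in 3 of 36 cases at the peak, which is no larger a share than that of all genes (median 0.55; Ndufs6 1.27), and 18 of 36 in chronic disease (median 0.86; Ndufa1 2.02). Of the 4 genes of complex II, Sdhc rose at the peak (0.80) and Sdhb in chronic disease (1.60). Ribosomal protein genes, which make the cytosolic translation machinery, rose in 66 of 81 cases at the peak (median 1.31) and 51 of 81 in chronic disease (median 1.09).

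Among structural subunits outside the 34 genes, Cox7a2l, known for joining complexes III and IV into supercomplexes, and Cox4i2, the lung and hypoxia form of subunit 4, rose at the peak, 2 of 8 genes tested. Cox7a2l was at 158, 196 and 146 CPM in controls and 317 and 453 CPM at the peak (1.21 ± 0.30). Cox4i2 rose by 3.67 ± 0.96 but reached only 2.06 and 1.75 CPM. In chronic disease 4 of 8 rose, among them the small ATP synthase proteins Atp5mpl (1.36 ± 0.28) and Atp5md (1.28 ± 0.31) and the complex IV subunit Ndufa4 (1.09 ± 0.31). Of the carriers and cytochrome c, 1 of 8 rose at the peak (Slc25a5, 0.87) and 2 of 8 in chronic disease (the ADP/ATP carrier Slc25a4, 1.28, and cytochrome c, Cycs, 1.55).

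Of the assembly factors for complex IV, 3 of 25 rose at the peak, again near the 12.3% of all genes (Coa5 1.70, Cmc1 1.45, Cmc2 0.95), and 5 of 25 in chronic disease, including the same 3 at 0.92, 1.42 and 0.83. For complex III 0 of 6 and 1 of 6 rose (Uqcc2, 1.36 in chronic disease), and for complex V 0 of 4 in both. Among 10 regulators of respiratory genes, the coactivator Ppargc1b was the 1 that rose, by 2.15 ± 0.35 at the peak (edgeR adjusted p = 0.00084) and 1.01 ± 0.32 in chronic disease (edgeR adjusted p = 0.046). It was at 3.26, 3.96 and 2.07 CPM in controls, 16.7 and 10.5 CPM at the peak and 5.45, 6.97 and 6.00 CPM in chronic libraries. Ppargc1a was at 0 to 0.337 CPM in microglia.

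Markers of other cells and states moved with the groups as well. The 6 monocyte markers summed to 3.68 to 7.57 CPM in control, 69.8 to 107 in peak and 85.6 to 278 CPM in chronic microglia, with Vcan at most 1.65 CPM and Fn1 the main contributor. The 6 proliferation markers summed to 61.5 to 107 CPM in control, 292 to 300 at the peak and 66.4 to 143 CPM in chronic microglia. The 6 microglial markers summed to 15825 to 20332 CPM in control, 5797 to 7055 at the peak and 9468 to 11342 CPM in chronic libraries. Border-associated macrophage markers summed to 0.715 to 4.74 CPM in resident sums. The 8 dissociation-induced genes summed to 625, 1394 and 694 CPM in control a to c, 1504 and 796 CPM in peak a and b and 576 to 630 CPM in chronic microglia. Control b, without which the chronic count was 9, thus stood apart from the other controls and beside peak a. Their part in the subunit results was not tested.

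Microglia of the chronic phase and of the peak differed in 1 of the 34 genes, where 9.79% of all genes tested changed and 5.04% fell. Atp5b fell, with peak libraries at 246 and 457 CPM and chronic libraries at 168, 157 and 151 CPM, which do not overlap. The groups were apart in this direction in 2 of the 34 genes and in 25.3% of all genes tested. The log2 change was −1.15 ± 0.26 (edgeR adjusted p = 0.023). Without peak b it was −0.63 (edgeR adjusted p = 0.19), and without chronic a or b it was −1.19 and −1.14 (edgeR adjusted p = 0.056 and 0.080). The median of the 34 was 0.31. ATP6, the mitochondrially encoded subunit a next to the c ring, also fell, by 1.78 ± 0.45 (edgeR adjusted p = 0.032). No pool holds microglia of both stages, so stage and pool cannot be told apart here: with pool as a term Atp5b was at −0.94 (edgeR adjusted p = 0.59) and the median was −0.58. Outside the 34 genes, the complex IV assembly factors Cox20 (1.18) and Pet100 (0.91) rose and Ppargc1b fell by 1.14.

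**Figure D3:**
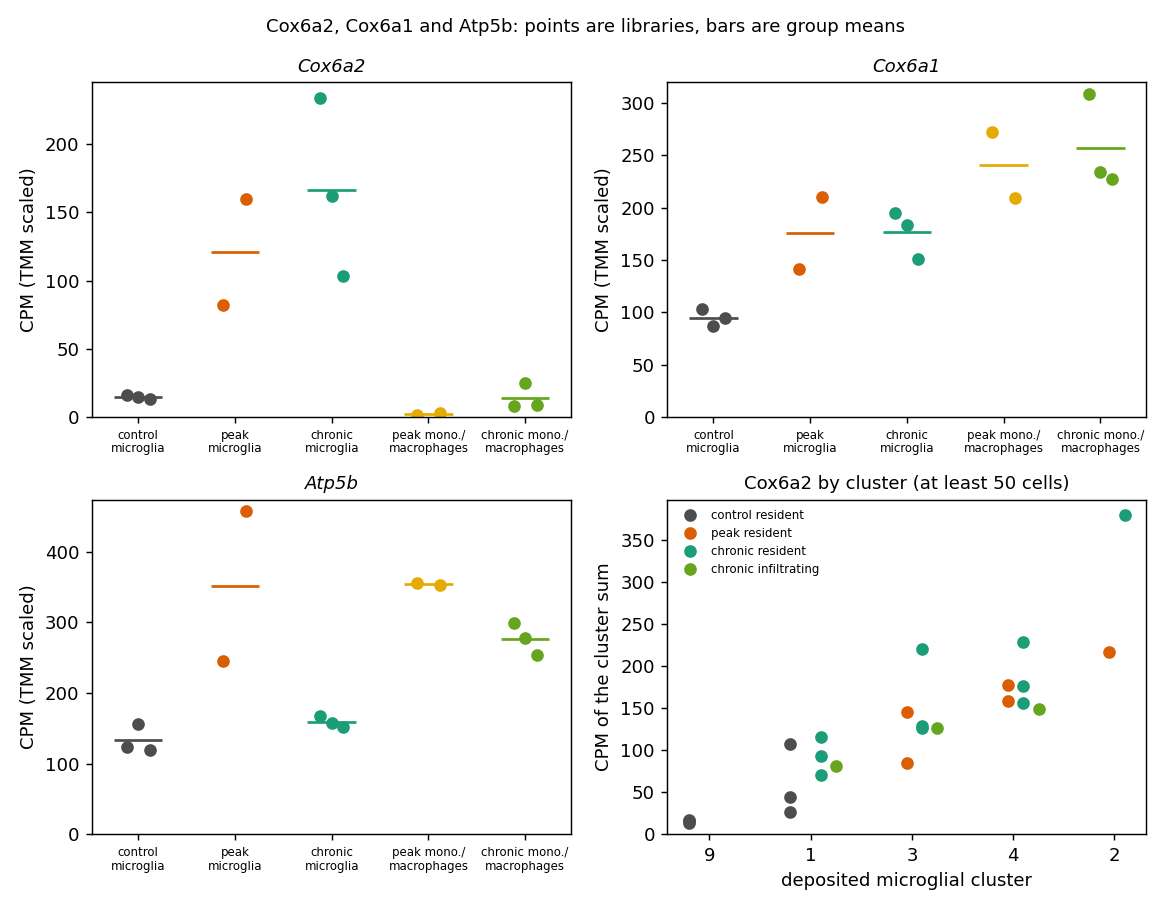
CPM of Cox6a2, Cox6a1 and Atp5b in each library by group, with lines at group means, and of Cox6a2 in sums of each deposited microglial cluster with at least 50 cells. Cox6a2 runs from 13.1 CPM in control to 234 CPM in chronic microglia and stays at or under 24.8 CPM in infiltrating sums, while Atp5b is highest in the peak libraries.

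Within subunit 6A, Cox6a2 took a larger share of the pair in disease microglia than in controls, with no overlap. UMIs count molecules whatever their length, so the pair can be set against each other. Cox6a2 made up 13.7, 14.7 and 12.2% of the pair's UMIs in control microglia, 36.9 and 43.3% at the peak and 54.5, 46.9 and 40.6% in chronic microglia. It made up 0.507 and 1.41% in peak infiltrating cells and 2.47, 9.57 and 3.83% in chronic infiltrating cells. Cox6a1 itself was at 103, 86.7 and 94.7 CPM in controls, 141 and 210 CPM at the peak and 195, 184 and 151 CPM in chronic microglia, so both genes rose (0.89 ± 0.25 and 0.90 ± 0.23 for Cox6a1). Among the c-ring genes the groups overlapped: Atp5g2 made up 59.1 ± 1.15% of their UMIs in control (n = 3), 57.1 ± 2.11% at the peak (n = 2) and 60.9 ± 4.46% in chronic microglia (n = 3).

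The levels of the 3 c-ring genes were as follows. Atp5g1 was at 151, 112 and 153 CPM in controls, 197 and 274 CPM at the peak and 359, 337 and 199 CPM in chronic microglia. Atp5g2 was at 329, 236 and 357, then 411 and 637, then 736, 784 and 579 CPM. Atp5g3 was at 75.6, 60.2 and 84.3, then 131 and 175, then 190, 193 and 100 CPM. All 3 rose in chronic disease, by 1.11 to 1.19, and at the peak Atp5g3 did (1.06 ± 0.33). The least abundant gene of complex V by UMIs, Atp5o, which links head and stalk, was at 76.2, 73.1 and 84.0 CPM in controls, 90.1 and 188 CPM at the peak and 175, 178 and 112 CPM in chronic libraries (0.99 ± 0.32, edgeR adjusted p = 0.049).

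By cell, Cox6a2 was seen in 5.99, 6.27 and 4.17% of control microglia, 38.3 and 50.6% of peak and 35.2, 27.2 and 24.8% of chronic microglia. In T cells, which should lack it, a UMI was seen in 0 to 7.55% of cells of a library. Those T cells are from EAE libraries, at median depths of 2861 to 7258 UMIs. In chronic infiltrating b 10 of their 11 UMIs of Cox6a2 lay in 1 cell, and in chronic infiltrating c 20 of 23. That cell of chronic infiltrating c also held a UMI of Siglech, a gene of plasmacytoid dendritic cells and microglia. No control library held 20 or more T cells, so the control share, at median depths of 3017 to 4476 UMIs, has no such background of its own. The control shares too lie within the T cell range. How much of the control level, from which the changes of Cox6a2 are counted, is background was not tested. Single control microglia held up to 4, 12 and 11 UMIs in libraries a to c. Infiltrating monocytes (0 to 2.55% of cells) were within the range of the T cells, as were infiltrating macrophages except in chronic infiltrating b, where the share was 13.6%. That range is over all libraries, and its top is from the resident gate (chronic a). Against T cells of their own library, infiltrating macrophages were higher each time. They were at 1.75 against 1.42 and 4.44 against 2.13% in peak a and b. In chronic a to c they were at 4.86 against 0, 13.6 against 3.13 and 6.53 against 3.85%. These macrophages were also deeper, with medians of 6552 to 12285.5 UMIs. Monocytes were higher only in chronic a (2.55 against 0%). Microglia of the infiltrating gate had 131 CPM in chronic infiltrating b (1915 cells) and 153 CPM in chronic infiltrating c (74 cells), within the 109 to 216 CPM of chronic microglia of the resident gate. Macrophages sorted in the resident gate, 20 to 68 cells a library, had 62.2 to 121 CPM of Cox6a2, and those of the infiltrating gate 1.53 to 21.9 CPM. In peak resident a and b, 24 of 30 and 15 of 20 of these macrophages held a UMI of Siglech, with 20 of 22 and 24 of 34 Cox6a2 UMIs. In chronic resident a to c, 4 of 68, 5 of 58 and 6 of 52 did, with 2 of 50, 4 of 56 and 9 of 44 UMIs. In the infiltrating gate 0 to 9 macrophages a library did. Whether some of these cells are microglia was not tested. Itgax, a neighbour in the same chromosomal region and a known gene of activated microglia, was at 7.70 to 9.33 CPM in control, 47.2 to 98.6 CPM at the peak and 70.2 to 104 CPM in chronic microglia.

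Among the deposited microglial clusters the 34 genes together were lowest in cluster 9 and highest in clusters 4 and 2. Cluster 9, with the most P2ry12 (3273 CPM), a gene of unchallenged microglia, was at 0.694 ± 0.0654% of UMIs in control libraries (n = 3). Cluster 1 was at 0.763 ± 0.0614% in control and 0.914 ± 0.0506% in chronic libraries (n = 3 each). Cluster 3 was at 0.904 ± 0.157% at the peak (n = 2) and 0.977 ± 0.112% in chronic libraries (n = 3), and cluster 4, with the most Apoe (31668 CPM), a lipid carrier gene of activated microglia, at 1.40 ± 0.182% and 1.29 ± 0.135%. Cluster 2, with the most Mki67 (203 CPM), a gene of dividing cells, was at 1.39% in 1 peak and 1.56% in 1 chronic library. Within libraries, cluster 4 was above cluster 3 in 6 of 6 libraries (mean log2 ratio 0.46 ± 0.14) and above cluster 1 in 4 of 4 (0.49 ± 0.08). Cluster 1 was above cluster 9 in 3 of 3 control libraries (0.14 ± 0.06). These genes were among those the authors clustered, so the levels describe the clusters and are no test.

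As a ratio of the highest to the lowest cluster mean, Cox6a2 varied most of the 34 genes. It was at 15.5 ± 1.77 CPM in cluster 9 (3 libraries), 76.7 ± 32.6 in cluster 1 (7), 138 ± 44.6 in cluster 3 (6), 174 ± 29.0 in cluster 4 (6) and 298 ± 115 CPM in cluster 2 (2). Levels in clusters, and in classes within gates, are CPM of that sum without TMM scaling. Neighbours from cluster 1 to cluster 2 overlapped in their libraries. Even in control libraries cluster 1 stood at 44.1, 107 and 26.3 CPM, above cluster 9 of the same libraries at 17.3, 15.4 and 13.8 CPM, though from 17, 33 and 5 UMIs. Atp5b, by contrast, lay apart between peak and chronic libraries within a cluster. In cluster 3 peak libraries were at 262 and 422 CPM and chronic resident libraries at 125 to 159 CPM. Stage and pool cannot be told apart within clusters either.

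**Figure D4:**
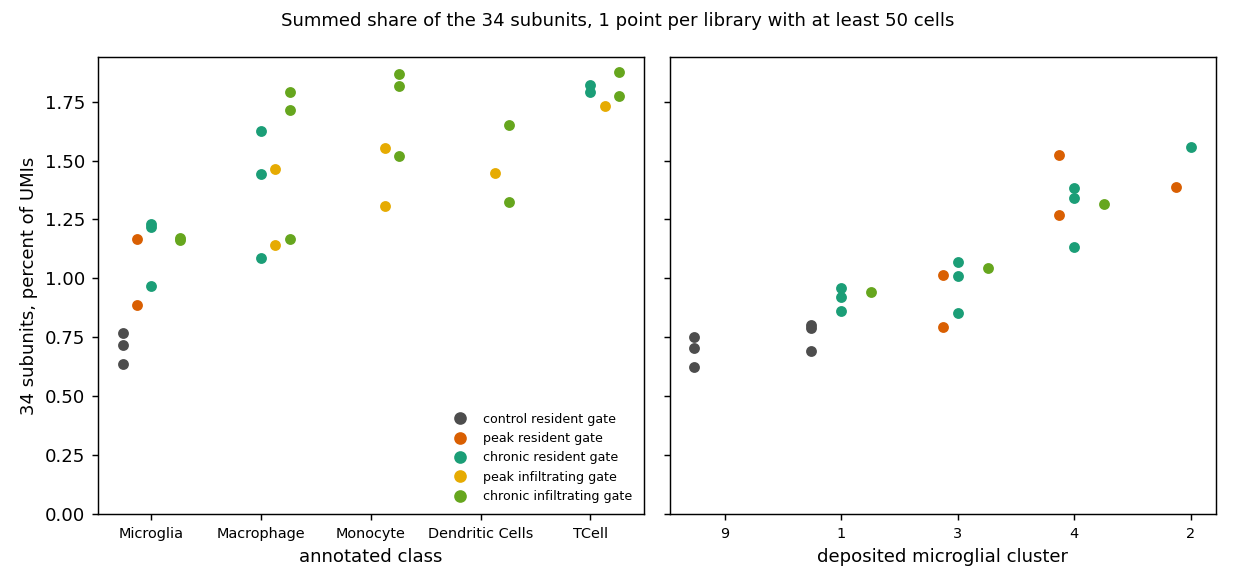
Summed share of the 34 genes among all UMIs, by annotated class (left) and by deposited microglial cluster (right), with 1 point per library of at least 50 cells, coloured by group. Control microglia lie at 0.639 to 0.767%, disease microglia at 0.887 to 1.23%, and clusters 4 and 2 lie above clusters 9, 1 and 3.

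Holding the cluster constant left fewer calls, from sums of at least 50 cells unless stated. In cluster 1, chronic against control, 0 of 34 genes were called in edgeR, where 0.846% of 6973 genes were. The median was 0.36 with 30 of 34 above 0. An unadjusted p under 0.05 was found in 11 genes and in 817 of all genes tested. Among the 11 was Atp5b, which was lower in chronic disease (−0.51 ± 0.21). Cox6a2 was at 0.72 ± 0.34 in this cluster (edgeR adjusted p = 0.43), below its change over all microglia given before. Without chronic c, 8 rose and 1 fell, where 624 of all 5762 genes tested were called. Cluster 3 can be set against control only with sums of at least 20 cells (43 and 23 cells in control b and c). There 33 of 34 genes were above 0 at the peak (median 0.61 against 0.11 over all genes), and Cox6a2 (3.13 ± 0.64) and Atp5b (1.29 ± 0.36) rose, where 3.41% of 9314 genes were called. In chronic disease all 34 were above 0 (median 0.80 against 0.08), and Cox6a2 (3.67 ± 0.60), Uqcrh (1.30 ± 0.33) and Atp5g2 (1.17 ± 0.31) rose, where 2.8% were called and 18 of the 34 had an unadjusted p under 0.05. Without chronic a, b or c the calls were 2, 1 and 3 at the peak and 2, 1 and 16 in chronic disease. The share of all genes called is not set beside these counts, so they are not read as results about the subunits. Leaving out a control or peak library leaves 1 in its group, so medians alone are given. Without control b and c they were 0.42 and 0.69 at the peak and 0.57 and 0.92 in chronic disease. Without peak a and b the peak median was 0.79 and 0.34. In cluster 3, chronic against peak, 1 gene was called where 18.6% of 9222 genes were: Atp5b, which fell by 1.16 ± 0.28 (edgeR adjusted p = 0.0085). In cluster 4 Atp5b was again the 1 gene called, where 4.69% of 9647 genes were, with peak libraries at 331 and 498 CPM and chronic resident libraries at 157 to 173 CPM. It fell by 1.54 ± 0.29 (edgeR adjusted p = 0.014), and stage and pool are not told apart in either cluster. Without peak b neither call of Atp5b was made, and that in cluster 4 was also lost without chronic a. Without chronic c, 6 genes rose in cluster 3 beside Atp5b, where 2722 of all 9487 genes tested were called, so this is not read as a result about the subunits.

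Against microglia of the same stage, infiltrating monocytes and macrophages were higher in 14 of the 34 genes in chronic disease and in 6 at the peak, and lower in 1 at both, Cox6a2. The count at the peak is near the background, since 13.9% of all genes tested were higher, 16% lower and 29.9% either. The median was 0.75 against −0.05 over all genes, with 33 of 34 above 0. In chronic disease 12.4% of all genes were higher, 13.7% lower and 26.1% either, and the 34 had a median of 0.81 and again 33 of 34 above 0. The sums come from different sorting gates, and in chronic disease both classes were found in both gates. There the 34 genes took 1.17 ± 0.00490% of the UMIs of microglia from the infiltrating gate (n = 2 libraries) and 1.14 ± 0.148% of those from the resident gate (n = 3). Macrophages were at 1.56 ± 0.339% and 1.38 ± 0.272% in the same gates (n = 3 each). At the peak the infiltrating libraries held 18 and 2 microglia, too few for such a share.

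Cox6a2 was at 1.39 and 3.00 CPM in peak infiltrating a and b and at 7.83, 24.8 and 9.04 CPM in chronic infiltrating a to c, below every disease microglia library. The log2 difference from microglia was −5.97 ± 0.64 at the peak (edgeR adjusted p = 1.7e-05) and −3.59 ± 0.45 in chronic disease (edgeR adjusted p = 5.9e-05). Outside macrophages of chronic infiltrating b, the shares of infiltrating cells with a UMI lie within the T cell range over all libraries given above. Macrophages stood above the T cells of their own library, at greater depth. How much of the infiltrating level is background was not tested. The highest infiltrating value belonged to chronic infiltrating b, the library with mostly microglia. Cox6b1, which faces the intermembrane space in complex IV, was at 240 and 377 CPM in peak microglia and 798 and 462 CPM in infiltrating cells, a difference of 1.03 ± 0.34 (edgeR adjusted p = 0.034). Atp5h was at 246 and 399 against 773 and 511 CPM (0.99 ± 0.31, edgeR adjusted p = 0.025). Atp5d was at 153 and 261 against 611 and 306 CPM (1.15 ± 0.37, edgeR adjusted p = 0.032), and Cox7a2 at 224 and 319 against 553 and 449 CPM (0.88 ± 0.30, edgeR adjusted p = 0.037). In each of these 4 the infiltrating libraries were above the microglia libraries. Over the 34 genes, 22 were higher without overlap and 1 lower, against 28.9 and 33.1% of all genes tested.

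In chronic disease the leading genes were Atp5l and Cox7a2. Atp5l was at 496, 479 and 348 CPM in microglia and 1104, 1055 and 741 CPM in infiltrating cells (1.13 ± 0.27, edgeR adjusted p = 0.0060). Cox7a2, a subunit of complex IV near its dimer face, was at 319, 309 and 244 against 733, 584 and 469 CPM (1.04 ± 0.24, edgeR adjusted p = 0.0062). Cox6b1 was at 418, 413 and 317 against 838, 789 and 607 CPM (0.96 ± 0.28). Uqcrb, which binds ubiquinone in complex III, was at 363, 353 and 214 against 825, 709 and 406 CPM (1.06 ± 0.31, edgeR adjusted p = 0.021). None of these 4 overlapped. Over the 34 genes, 24 were higher without overlap and 1 lower, against 19.1 and 22.5% of all genes tested. Atp5b too was higher in infiltrating cells of the chronic phase (0.80 ± 0.24), while at the peak its difference was 0.01 ± 0.29.

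These counts moved with the libraries, and the share of all genes called without each library is not given here. At the peak 1 gene was left without peak microglia a or peak infiltrating a and 14 without peak infiltrating b; 3 were left without control a and 4 each without control c, chronic microglia a or chronic microglia b. In chronic disease 3 were left without chronic microglia c, chronic infiltrating a or chronic infiltrating b, 8 and 7 without chronic microglia a and b, and 23 without chronic infiltrating c. Within pools, the median log2 difference from microglia was 0.68 and 0.10 for peak infiltrating b against peak microglia a and b. In these 33 and 22 of 34 genes were higher, as were 46.1 and 47.6% of all genes, and 5 and 0 genes were above 1 against 11.1 and 11.2% of all genes. It was 0.73 in pool B (2 genes above 1 against 8.69% of all genes). In pool D it was 0.80 for chronic infiltrating a against chronic microglia a and 0.78 for b against b (10 and 3 genes above 1 against 11.3 and 8.02% of all genes). The letters are names only, and a was not set against b in that pool. The T cells of these libraries, which are of another lineage, had the highest summed share of all annotated classes, 1.80 ± 0.0546% (5 libraries), beside 1.61 ± 0.230% in monocytes (5), 1.47 ± 0.165% in dendritic cells (3), 1.43 ± 0.272% in macrophages (8) and 0.993 ± 0.227% in microglia (10).

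Between the stages, infiltrating cells differed in 1 of 34 genes, Cox6a2, where 0.793% of all genes tested changed and 0.566% rose. Its values given above do not overlap, which held in this direction for 5 of the 34 genes and 10.7% of all genes tested. The log2 change of Cox6a2 from peak to chronic was 2.84 ± 0.60 (edgeR adjusted p = 0.046), at 17 to 66 UMIs a chronic sum and 12 and 22 UMIs a peak sum. Except for macrophages of chronic infiltrating b, the shares of cells with a UMI lie within the range of T cells over all libraries given above, though macrophages exceeded T cells of their own library. T cells stood at 1.67 and 6.87 CPM in the peak infiltrating libraries and at 0, 55.6 and 101 CPM in the chronic ones. In chronic infiltrating b and c most of these T cell UMIs lay in 1 cell each, as given above, so they give no even background. No change in expression is read from the call of Cox6a2. The call was lost without any of 10 of the 13 libraries (edgeR adjusted p = 0.058 to 0.19), and without chronic infiltrating b the change was 2.11. The median of the 34 was 0.31. The change between the stages was not shown to differ between infiltrating and resident cells in any of the 34 genes (0 called, where 0.0436% of all genes tested were), and for Cox6a2 the difference was 2.39 ± 0.74 (edgeR adjusted p = 0.41).

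Outside the 34 genes, infiltrating cells had more Higd1a, a hypoxia-inducible complex IV factor, than microglia (1.61 ± 0.40 at the peak and 1.13 ± 0.33 in chronic disease) and less Myc (−2.38 ± 0.37 and −0.87 ± 0.30). At the peak the complex IV assembly factor Cox14 was higher (0.95), and Lrpprc, which stabilises mitochondrial messages, and the complex III factor Lyrm7 were lower (−0.90 and −2.24). In chronic disease Cox7a1 was higher (2.05), with Atp5md and Atp5pb, and Bcs1l, which inserts the Rieske protein, was lower (−1.03). Nuclear complex I genes were higher in 4 and 8 of 36 cases, beside 13.9 and 12.4% of all genes, and mitochondrially encoded subunits of complexes III, IV and V in 0 of 6 in both. In edgeR 1 of 81 and 3 of 81 ribosomal protein genes were higher.

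The balance of mitochondrially encoded to nuclear UMIs differed by complex. For complex IV it was 1.97, 2.97 and 1.76 in control libraries a to c, 3.82 and 2.62 at the peak and 1.14, 1.23 and 2.02 in chronic microglia. For complex V (ATP6 and ATP8 against 14 genes) it was 0.429, 1.10 and 0.457, then 1.58 and 1.14, then 0.243, 0.253 and 0.535. For complex III (CYTB against 9 genes) it was 1.24, 1.41 and 1.14, then 1.37 and 1.16, then 0.976, 1.04 and 1.39. In complexes IV and V the groups follow the pools in part: control b, in pool C with the peak libraries, was the highest control, and chronic c, in pool B, the highest chronic library. Infiltrating cells had 0.684 to 0.703 at the peak for complex III, below both peak microglia libraries. The authors' cells hold at most 5.00% mitochondrial UMIs, which limits the numerator.

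**Figure D5:**
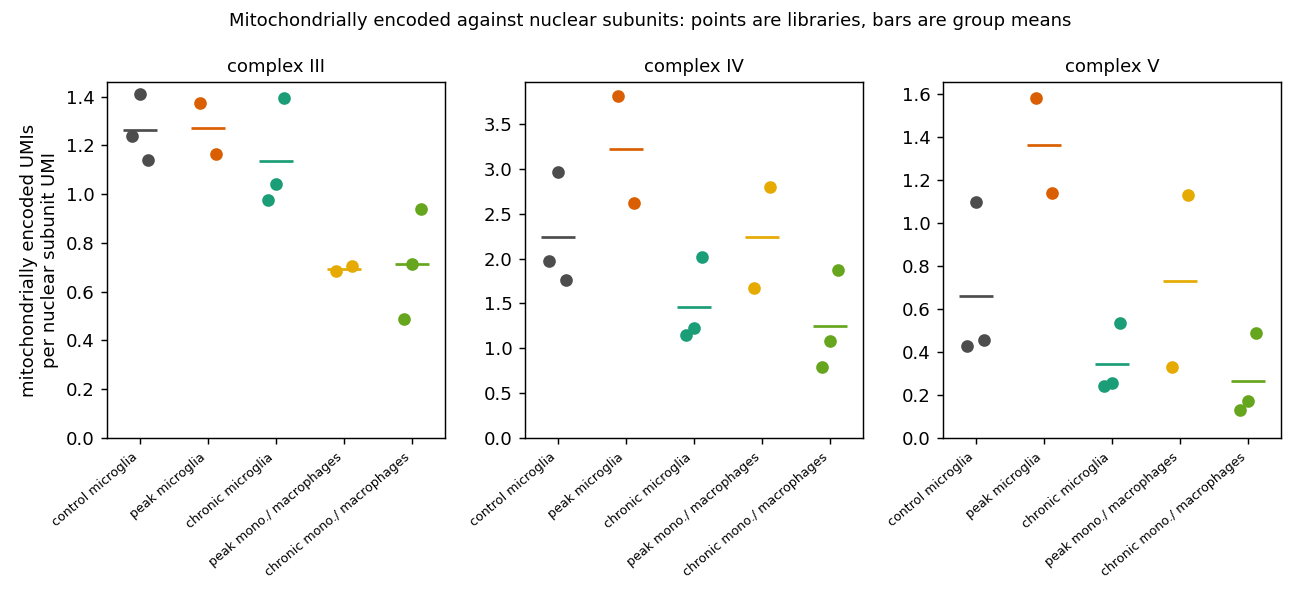
Mitochondrially encoded UMIs per UMI of the nuclear subunits of the same complex, 1 panel per complex; points are libraries and lines group means. For complex V peak microglia lie at 1.14 and 1.58 and chronic microglia at 0.243 to 0.535, with control b at 1.10 beside the peak libraries.

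Promoters were read because many of these genes rose together. RefSeq (GRCm38.p6) gave the 250 bases before the start of 26 of the 34 genes; Uqcrc2, Uqcrb, Uqcrq, Cyc1, Cox4i1, Cox6a2, Cox6c and Atp5a1 were not matched. Motifs were searched on both strands. GCATGCGC, the core of the motif of NRF1, a factor known for respiratory genes, was in 4 of 26 (Cox6a1, Atp5g2, Atp5k and Atp5l) and in 2.32% of 27025 promoters of the same length. CCGGAAG, an ETS family motif that GABP also binds, was in 7 of 26 and in 7.05% of all. GGGCGG, an SP1 motif, was in 6 of 26 and 32.9%, TCAAGGTCA, of oestrogen-related receptors, in 1 (Atp5g3) and 0.366%, and the E-box CAGCTG in 1 (Atp5b) and 12.8%. Printed for 3 genes that rose in chronic disease and hold these letters, 5′ to 3′ on the gene's strand with each match in capitals, the sequences are those of Cox6a1 (chr5:115348959-115349208, minus strand), Atp5l (chr9:44920743-44920992, minus strand) and Uqcrh (chr4:116075071-116075320, minus strand).
Cox6a1: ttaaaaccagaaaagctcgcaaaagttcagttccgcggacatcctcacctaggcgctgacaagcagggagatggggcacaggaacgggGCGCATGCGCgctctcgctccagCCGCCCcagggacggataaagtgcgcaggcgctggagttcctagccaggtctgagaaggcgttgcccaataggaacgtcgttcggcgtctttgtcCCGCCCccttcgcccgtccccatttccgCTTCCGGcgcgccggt
Atp5l: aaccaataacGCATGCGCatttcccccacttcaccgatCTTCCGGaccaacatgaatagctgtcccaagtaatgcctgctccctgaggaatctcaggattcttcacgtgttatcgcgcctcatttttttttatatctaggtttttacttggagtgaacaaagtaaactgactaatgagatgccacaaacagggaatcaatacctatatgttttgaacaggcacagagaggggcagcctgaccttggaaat
Uqcrh: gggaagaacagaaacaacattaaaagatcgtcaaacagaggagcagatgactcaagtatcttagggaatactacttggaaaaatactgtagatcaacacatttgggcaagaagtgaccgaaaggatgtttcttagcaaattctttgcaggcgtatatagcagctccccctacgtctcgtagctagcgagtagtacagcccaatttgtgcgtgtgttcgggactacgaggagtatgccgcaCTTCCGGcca
In Cox6a1 the NRF1 core matches on both strands, overlapping itself, beside 2 SP1 matches and 1 ETS match (CTTCCGG, its reverse complement). Atp5l has the NRF1 core and an ETS match, and Uqcrh an ETS match 10 bases before the start. A match is a description of the letters and not of a factor's binding, and genes with and without matches rose.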

How the data were processed

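Per the labels, single cells were prepared with 10x Genomics chemistry from polyA RNA of perfused, cold-dissociated, Percoll-cleared and sorted spinal cord cells. The authors deposited a sparse matrix of UMI counts per gene and cell, with no normalization, and a table of cells with library, class, cluster and SLX label. In that deposited table, mitochondrial content is a percent (at most 5.00, so the authors' cells end there) and the cell total is a log10 of UMIs; 0 cells are marked as doublets. Cell Ranger 3.1.0, R 4.1.3 and the builds GRCm38 and mm10 are named, with no role, in the submitters' processing notes (annotation: not given in the sources used here). The 13 mitochondrially encoded genes were in the matrix, and their summed share equalled the deposited mitochondrial percent.

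Counts were summed per library over the annotated classes and tested with edgeR 4.0.16 in R 4.3.3: filterByExpr (11479 genes, all 34 subunit genes), TMM, 1 quasi-likelihood fit of 5 group means with 8 residual degrees of freedom, Benjamini-Hochberg adjustment over all genes, called at 0.05, all tests two-sided. The biological coefficient of variation was 26%. Standard errors came from the F statistic. Clusters were fitted separately from sums of at least 50 cells. P-values measure the spread between libraries. Tested on simulated data with 50 changed genes per fold size among 11121, the fit recovered 28% and 98% of 2-fold and 4-fold changes at the peak and 46% and 100% in chronic disease. The simulation changed 200 genes in all and held no pool effect, unlike the data, where more genes were called, so its rates describe that setting only. Within pools, differences are of log2 (CPM + 1).

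By SLX label (named pools A to D here), the controls a, b and c fell into pools A, C and B. Peak infiltrating a shared pool A; the remaining peak libraries shared pool C, which spans 2 batch dates. Of the chronic libraries, those lettered c were in pool B and all others in pool D. Alternatives were library size alone, DESeq2 1.42.0 and its size factors, no count filter, all cells, cluster 2 left out, pool as a term, only the groups compared and each library left out. Chosen after seeing the data were leaving out ribosomal protein and mitochondrially encoded genes, leaving out each library within clusters (also at 20 cells a sum in cluster 3), the list of mitochondrially encoded genes, and coding length. The subunit genes and the other lists were chosen with earlier results of these data known. Genes given in full were, per comparison, up to 4 called per direction by p, the highest and lowest of each complex, the c-ring genes, Cox6a1 and Cox6a2; from other lists, up to 3 called by p. A dense copy of the counts was not used.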

Additional observations from a re-analysis of the deposited data

Results flagged for a closer look

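Cox6a2 was also found in annotated dendritic cells, which no comparison used. It was at 277.1 CPM in chronic infiltrating a (114 UMIs in 64 cells) and 142.6 CPM in peak infiltrating a (120 UMIs in 75 cells). The UMIs sat in few cells: 96 of the 114 were in 7 cells with a UMI of Siglech, a gene of plasmacytoid dendritic cells and microglia, and 106 of the 120 in 15 such cells. In chronic infiltrating c there was 1 UMI in 134 dendritic cells, and 0 in the 8 of them with a UMI of Siglech. In peak infiltrating b, 5 such cells held 2 of 7 UMIs, and in chronic infiltrating b 1 such cell held 4 of 4. No control library held 20 or more dendritic cells, so there is no control level.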

How the results depend on the processing

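No paired analysis was possible because the deposited cell table does not carry the replicate numbers of the labels. Over 172 alternative counts of called subunit genes, 113 stayed within 1.5 times the value given and 59 did not, and 0 of 5202 values of single subunit genes changed sign once called. The share of all genes called under most of these settings is not given here. The counts below therefore describe how the calls moved and are not read as results about the subunits. At the peak against control (13 called) the count was 6 with library size alone, 7 with all cells of each library, 30 with pool as a term, 22 with only the groups compared, and 1 to 17 with 1 library left out. In chronic disease against control (28) it was 1 with pool as a term and 9 to 30 with 1 library left out. Between the stages in microglia (1) it was 0 with all cells or pool as a term and 0 to 1 with 1 library left out; in monocytes and macrophages (1) it was 0 with library size alone, all cells, pool as a term or only the groups compared, and 0 to 1 with 1 library left out. For monocytes and macrophages against microglia at the peak (7), library size alone gave 3, DESeq2 14, all cells 1, only the groups compared 1, and leaving out 1 library 1 to 14. In chronic disease (15), they gave 8, 25, 0, 8 and 3 to 23, and pool as a term gave 30. The interaction stayed at 0. Within clusters 1, 3 and 4, leaving out 1 library gave 0 to 9, 0 to 7 and 0 to 1. The 9 and the 7, both without chronic c, came with 624 of 5762 and 2722 of 9487 genes called. Taking all cells adds microglia of the infiltrating gate, above all in chronic infiltrating b, and there the chronic difference of Cox6a2 was −1.59 (edgeR adjusted p = 0.14). The causes of the other shifts were not tested. With 2 peak libraries a group, changes near 2-fold were recovered in 28% of simulated cases, with 200 genes changed in all. In the data 22% of genes tested were called at the peak, so this rate does not give the sensitivity for the subunit genes. A subunit gene that missed the threshold was not shown to be unchanged.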
